A study of Caenorhabditis elegans with 9 samples.

Results

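Superoxide dismutases, catalases and metallothioneins were followed in starved first-stage larvae (L1) of the nematode Caenorhabditis elegans. The 10 genes are sod-1, sod-2, sod-3, sod-4, sod-5, ctl-1, ctl-2, ctl-3, mtl-1 and mtl-2, and all probe sets whose platform symbols named these genes alone were taken, 11 of 22548 tested. Of these, 10 probe sets name a single gene. A probe set with the symbols ctl-1 and ctl-3 cannot tell these genes apart, and mtl-2 has 3 probe sets. Whole larvae of 3 strains were measured with 3 arrays each: ogt-1(ok430), a loss-of-function mutant of the O-GlcNAc transferase, oga-1(ok1207), a loss-of-function mutant of the O-GlcNAcase, and wild type. The transferase attaches single O-GlcNAc sugars to nuclear and cytoplasmic proteins, and the O-GlcNAcase takes them off. All strains, wild type included, came from bleached gravid adults and were collected after 48 h of shaking in sterile buffer without food, so that no fed larvae are among the groups. Each mutant strain carries 1 allele, and the arrays of a strain are labelled as biological replicates.

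Superoxide dismutases turn superoxide into hydrogen peroxide, and catalases break hydrogen peroxide down to water and oxygen. In C. elegans, sod-1 and sod-5 encode cytosolic copper/zinc enzymes, sod-4 an extracellular or membrane-bound copper/zinc enzyme, and sod-2 and sod-3 mitochondrial manganese enzymes. Metallothioneins are small cysteine-rich proteins that bind zinc, cadmium and other metals, and mtl-2 is known as a gene of the intestine. sod-3, mtl-1 and ctl genes are widely used as readouts of DAF-16, a FOXO protein that insulin-like signalling holds back and that is active in starved L1 larvae.

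The values are on a log2 scale, 1 per probe set and array, and array medians lay between 6.80 and 6.87. Levels of different probe sets were not ranked against each other, because probes differ in how strongly they bind. The 5 yeast control probe sets, whose targets the larvae lack, had strain means of up to 6.26, and all strain means of the member probe sets lay above it. The lowest member strain mean was 6.87, for sod-3 in oga-1, and 1 of 99 member array values lay at or below the highest yeast control value on any array, 6.46. Strains are named by their labels: of the ogt-1 probe sets, 1 read lower on ogt-1 arrays (log2 difference -0.61, limma adjusted p = 0.0124) and the other differed by -0.22 (adjusted p = 0.581), and the oga-1 probe sets differed between oga-1 and wild type by 0.03, -0.05 and -0.02 (adjusted p = 0.972, 0.953 and 0.986). On oga-1 arrays the same ogt-1 probe sets differed from wild type by -0.40 and -0.42 (limma adjusted p = 0.109 and 0.240). There too all arrays lay below wild type, and neither probe set was called between the mutants. These readings therefore do not tell the mutants apart. Whether the probes of either gene lie inside the deletions is not known. Over all probe sets oga-1 replicate 3 correlated with the oga-1 arrays at a mean of 0.989, against 0.991 with arrays of the remaining strains, and oga-1 replicate 2 stood apart on the second axis of variation. No member call was lost without either of them.

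The metallothionein gene mtl-2 was higher in both mutants than in wild type, on all of its 3 probe sets. On the probe set 188487_s_at (mtl-2 probe set 1), the gene read 12.24, 12.76 and 12.71 in ogt-1 larvae, 12.25, 12.01 and 12.21 in oga-1 larvae, and 11.10, 10.91 and 10.84 in wild type larvae (log2, replicates 1 to 3). All 6 mutant arrays thus lay above all 3 wild type arrays, and the arrays of the mutants overlapped. mtl-2 rose 3.06-fold in ogt-1 (95% interval 2.46 to 3.81; log2 difference 1.62 ± 0.14, SE, n = 3; limma, adjusted p = 6.73e-05 over all probe sets). It rose 2.31-fold in oga-1 (1.85 to 2.87; log2 difference 1.21 ± 0.14, adjusted p = 0.00185). In these RNA pools from whole larvae, more cells of a type and more RNA per cell cannot be told apart.

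**Figure D1:**
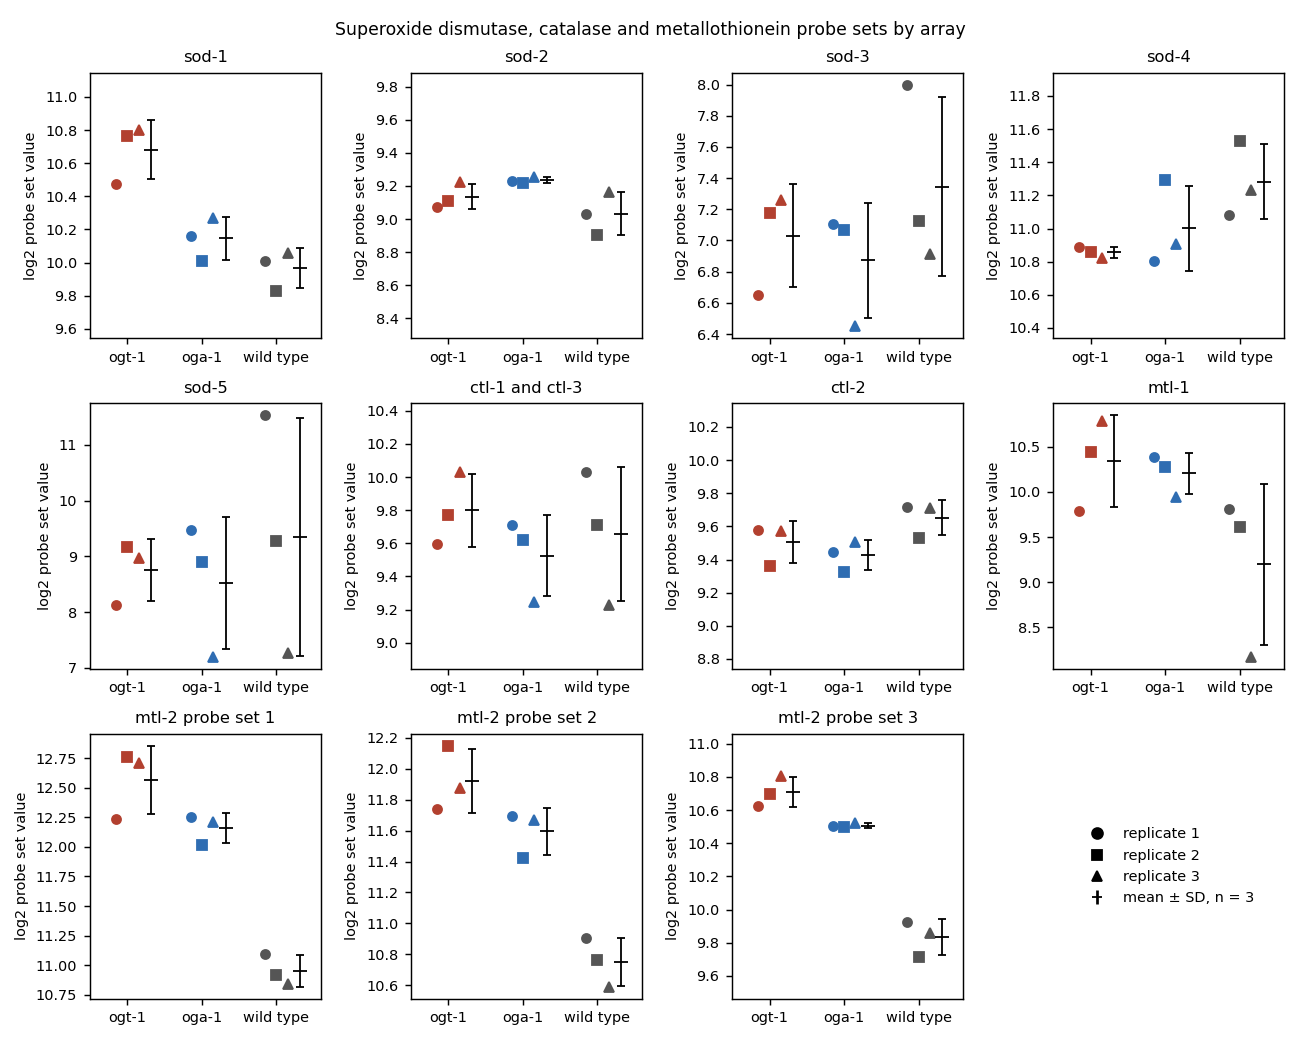
Log2 value of each member probe set on each array (vertical axis, a scale of its own per panel), with ogt-1 left, oga-1 in the middle and wild type right; symbols mark replicate numbers and bars the mean ± SD of 3 arrays. The mutant arrays lie above the wild type arrays for the 3 mtl-2 probe sets, sod-1 is separate only in ogt-1, and the wild type arrays of sod-5 run from 7.26 to 11.53.

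The other mtl-2 probe sets are 194150_x_at (mtl-2 probe set 2) and 194151_x_at (mtl-2 probe set 3). The endings s_at and x_at mark probe sets whose probes can also bind related transcripts, so readings of mtl-2, sod-1, ctl-2 and the ctl-1 and ctl-3 probe set may include other sequences. Probe set 2 read 11.74, 12.15 and 11.87 in ogt-1, 11.70, 11.42 and 11.67 in oga-1, and 10.90, 10.76 and 10.59 in wild type. It was 2.25-fold higher in ogt-1 (adjusted p = 0.000521) and 1.79-fold higher in oga-1 (adjusted p = 0.0119, limma), a call in oga-1 that was lost without oga-1 replicate 1 (adjusted p = 0.0579). Probe set 3 read 10.63, 10.70 and 10.81 in ogt-1, 10.50, 10.50 and 10.52 in oga-1, and 9.93, 9.72 and 9.86 in wild type. Here the strains were separate in the order ogt-1, oga-1, wild type, with no overlap. The fold was 1.84 in ogt-1 (adjusted p = 0.000482) and 1.59 in oga-1 (adjusted p = 0.00831). The probe sets read 1 gene and are not independent of each other. They shared the direction and the order of the strain means, while the log2 difference ran from 0.88 to 1.62 in ogt-1 and from 0.67 to 1.21 in oga-1.

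mtl-1, the other metallothionein gene, had higher means in the mutants but did not pass the test. It read 9.79, 10.44 and 10.79 in ogt-1, 10.39, 10.28 and 9.95 in oga-1, and 9.81, 9.61 and 8.18 in wild type. Wild type replicate 3 was the lowest array by more than 1 log2 unit, ogt-1 replicate 1 lay just below wild type replicate 1, and the oga-1 arrays lay above all wild type arrays. The log2 difference was 1.14 ± 0.37 in ogt-1 (95% interval 0.34 to 1.94, adjusted p = 0.120) and 1.00 ± 0.37 in oga-1 (0.20 to 1.81, adjusted p = 0.218; SE, n = 3, limma). Without wild type replicate 3 the differences were 0.63 and 0.49. Same-numbered oga-1 and wild type arrays deviated together across all probe sets. With replicate number as a block on these strains alone, mtl-1 passed (limma adjusted p = 0.0165). That setting was added after seeing the data, takes its pairs from the same arrays, and called 1316 of all probe sets against 436 in the main fit. With the planned block over all 3 strains mtl-1 did not pass. The oga-1 minus wild type differences of mtl-1 for replicates 1, 2 and 3 were 0.58, 0.67 and 1.77. The block on oga-1 and wild type alone changed the call of no other member probe set.

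Among the superoxide dismutases, sod-1 rose in ogt-1. On its probe set, 192125_s_at, this gene for the cytosolic copper/zinc enzyme read 10.48, 10.77 and 10.80 in ogt-1, 10.16, 10.01 and 10.27 in oga-1, and 10.01, 9.83 and 10.06 in wild type. All ogt-1 arrays were above all other arrays, and the oga-1 arrays overlapped those of wild type. sod-1 was 1.64-fold higher in ogt-1 than in wild type (95% interval 1.37 to 1.97; log2 difference 0.71 ± 0.12, SE, n = 3; adjusted p = 0.00702, limma). In oga-1 the log2 difference was 0.18 ± 0.12 (-0.09 to 0.44, adjusted p = 0.604). The call in ogt-1 was held without each array in turn, with an adjusted p of up to 0.0490 without ogt-1 replicate 2.

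The mitochondrial and extracellular enzymes did not pass in either mutant. sod-2, the main mitochondrial manganese dismutase, read 9.07, 9.11 and 9.22 in ogt-1, 9.23, 9.22 and 9.26 in oga-1, and 9.03, 8.91 and 9.16 in wild type. The oga-1 arrays lay above all wild type arrays and within 0.04 log2 units of each other, but the difference from wild type was small, at 0.20 (95% interval -0.02 to 0.42, adjusted p = 0.410). The ogt-1 difference of sod-2 was 0.10 (-0.12 to 0.32, adjusted p = 0.722), so that a rise as large as that of sod-1 lies outside both intervals. sod-4, the extracellular form, read 10.89, 10.86 and 10.82 in ogt-1, 10.81, 11.29 and 10.91 in oga-1, and 11.08, 11.53 and 11.23 in wild type. Its ogt-1 arrays were close together and all lay below the wild type arrays, with a log2 difference of -0.43 ± 0.15 (adjusted p = 0.142, 0.0659 to 0.382 over the alternatives). In oga-1 the difference of sod-4 was -0.28 ± 0.15 (adjusted p = 0.438, limma). Within same-numbered pairs of oga-1 and wild type it was -0.28, -0.24 and -0.33. With replicate number as a block on these strains sod-4 did not pass (limma adjusted p = 0.152).

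sod-3, the inducible mitochondrial manganese dismutase and a common reporter of DAF-16 activity, lay close to the yeast control level. It read 6.65, 7.18 and 7.26 in ogt-1, 7.11, 7.06 and 6.45 in oga-1, and 8.0, 7.13 and 6.91 in wild type. The strains overlapped, and wild type replicate 1 stood above all other arrays. The log2 difference was -0.31 in ogt-1 (95% interval -0.91 to 0.28, adjusted p = 0.665) and -0.47 in oga-1 (-1.06 to 0.12, adjusted p = 0.510). Without wild type replicate 1 the differences were 0.01 and -0.15. Within same-numbered pairs sod-3 was lower in oga-1 than in wild type, with log2 differences of -0.89, -0.06 and -0.46, and did not pass with the block on these strains (adjusted p = 0.0960).

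sod-5, the second cytosolic copper/zinc dismutase, differed far more between replicates than between strains. It read 8.12, 9.17 and 8.97 in ogt-1, 9.48, 8.90 and 7.2 in oga-1, and 11.53, 9.27 and 7.26 in wild type. The lowest and highest wild type arrays differed 19.3-fold, which made sod-5 the probe set with the second widest range among wild type arrays of all 22548. The log2 difference was -0.60 in ogt-1 (95% interval -2.46 to 1.26, adjusted p = 0.827) and -0.83 in oga-1 (-2.69 to 1.03, adjusted p = 0.778), and these intervals hold both a rise and a fall of more than 2-fold. Without wild type replicate 1 the differences were 0.49 and 0.26, and without wild type replicate 3 they were -1.65 and -1.87. Within same-numbered pairs, which the leaving out of a single array breaks, sod-5 was lower in oga-1 than in wild type in all 3, with log2 differences of -2.05, -0.38 and -0.06. With replicate number as a block on these strains it did not pass (adjusted p = 0.146).

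The catalase genes ctl-1, ctl-2 and ctl-3 lie next to each other in the gene table of assembly WBcel235, in the order ctl-2, ctl-1, ctl-3 and with no other protein-coding gene between them. The probe set 188587_s_at, shared by ctl-1, the cytosolic catalase, and ctl-3, read 9.60, 9.77 and 10.03 in ogt-1, 9.71, 9.62 and 9.25 in oga-1, and 10.03, 9.71 and 9.23 in wild type. The strains covered much the same range, and the log2 differences from wild type were 0.14 in ogt-1 (95% interval -0.29 to 0.57, adjusted p = 0.822) and -0.13 in oga-1 (-0.56 to 0.30, adjusted p = 0.867). ctl-2, the peroxisomal catalase, read 9.58, 9.36 and 9.57 in ogt-1, 9.44, 9.33 and 9.51 in oga-1, and 9.72, 9.53 and 9.71 in wild type. Its oga-1 arrays lay just below all wild type arrays. The differences of ctl-2 were -0.15 in ogt-1 (-0.38 to 0.09, adjusted p = 0.579) and -0.23 in oga-1 (-0.46 to 0.01, adjusted p = 0.381). Within same-numbered pairs of oga-1 and wild type they were -0.27, -0.20 and -0.20. With replicate number as a block on these strains ctl-2 did not pass (limma adjusted p = 0.257).

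**Figure D2:**
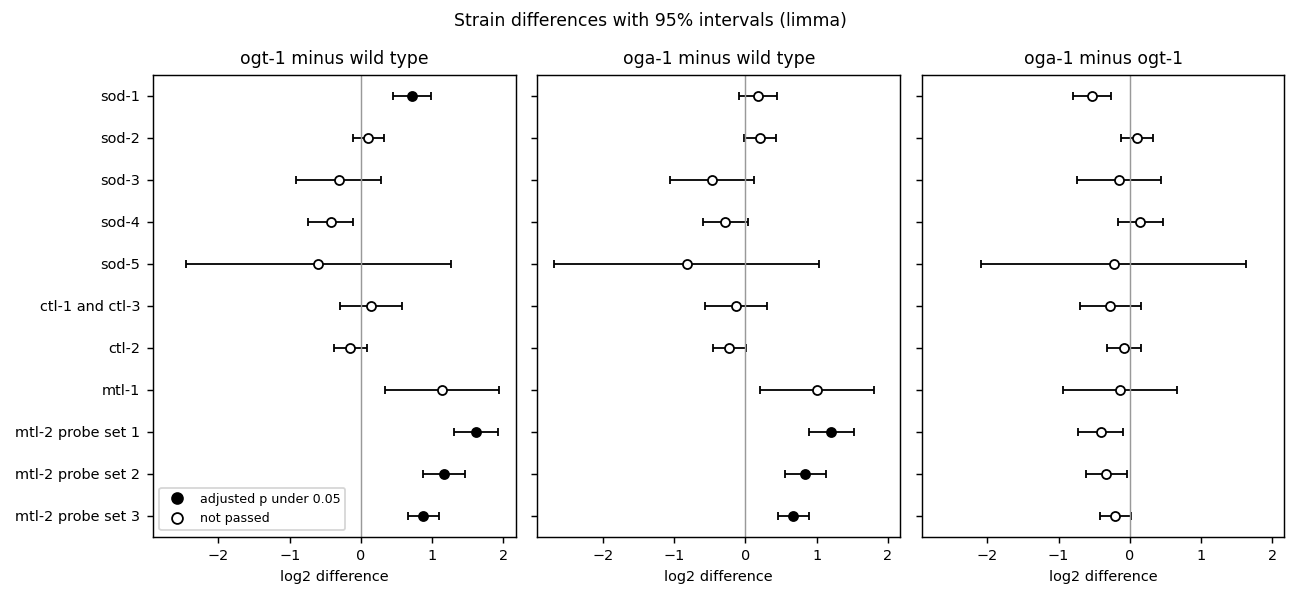
Log2 difference (horizontal axis) of each member probe set for ogt-1 minus wild type, oga-1 minus wild type and oga-1 minus ogt-1, with 95% intervals from the limma fit; filled points passed at an adjusted p under 0.05. The 3 mtl-2 probe sets passed against wild type in both mutants, sod-1 in ogt-1 alone, and no probe set passed between the mutants.

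In all, 4 of the 11 member probe sets were called higher in ogt-1 and none lower, beside 3.91% of all probe sets called in that comparison and 1.79% called higher. They belong to 2 genes, mtl-2 and sod-1. With sod-4 and mtl-1, 6 of 11 had an unadjusted p under 0.05 in ogt-1, beside 16.7% of all probe sets. In oga-1, 3 of 11 were called higher, all of mtl-2, beside 1.93% called and 0.727% called higher of all probe sets. With mtl-1, 4 of 11 had an unadjusted p under 0.05, beside 14.0% of all probe sets. The fit called 436 probe sets in oga-1 against wild type, and 1316 with replicate number as a block on these strains. The median log2 difference of the member probe sets was 0.14 in ogt-1 and 0.18 in oga-1, against 0.01 in each comparison for all probe sets. Above 0 were 7 of 11 in ogt-1 and 6 of 11 in oga-1. mtl-2 enters these medians and counts with 3 probe sets, which pulls them upwards. In oga-1 the other members above 0 were sod-1, sod-2 and mtl-1, and 5 of 11 were below 0. Both comparisons use the same wild type arrays. The arrays did not overlap for 5 of 11 member probe sets in ogt-1, where 22.5% of all probe sets did not, and for 6 of 11 in oga-1, where 16.5% did not. Here too, 3 of the probe sets in each count are those of mtl-2.

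Between the mutants no member probe set was called in oga-1 against ogt-1 (limma), while 3 of 11 had an unadjusted p under 0.05, beside 0.514% of all probe sets called and 5.22% with such an unadjusted p. All 3 were lower in oga-1: sod-1 by 0.53 ± 0.12 on the log2 scale (adjusted p = 0.128), mtl-2 probe set 1 by 0.41 ± 0.14 (adjusted p = 0.653) and mtl-2 probe set 2 by 0.33 ± 0.13 (adjusted p = 0.834). For sod-1 the oga-1 arrays, 10.01 to 10.27, lay below the ogt-1 arrays, 10.48 to 10.80. Thus sod-1 passed against wild type in ogt-1 and not in oga-1, but its difference between the mutants did not pass. The oga-1 arrays lay below all ogt-1 arrays for 3 members (sod-1 and mtl-2 probe sets 2 and 3), as for 5.21% of all probe sets, and 9.87% of all probe sets did not overlap in either direction. mtl-1 differed by -0.13 between the mutants (95% interval -0.93 to 0.67, adjusted p = 1.00).

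The members differed in how much the arrays of a strain varied. Among wild type arrays, the highest and the lowest array differed by 4.27 log2 units for sod-5, 1.64 for mtl-1, 1.09 for sod-3 and 0.80 for the ctl-1 and ctl-3 probe set, where the median of all probe sets was 0.27. mtl-1 was wider than 99.7% of all probe sets, sod-3 than 99.0% and the ctl-1 and ctl-3 probe set than 96.7%. In contrast, wild type ranges of mtl-2, sod-1, sod-2 and ctl-2 lay between 0.18 and 0.31, near that median. sod-5, sod-3 and the ctl-1 and ctl-3 probe set had the same array order in wild type, with replicate 1 highest and replicate 3 lowest, and mtl-1 and mtl-2 probe sets 1 and 2 had it too. In oga-1 replicate 3 was the lowest array for sod-3, sod-5, mtl-1 and the ctl-1 and ctl-3 probe set. At 3 arrays per strain, fitted differences of the genes with wide ranges therefore have wide intervals. The SE of a strain difference was 0.85 for sod-5, 0.37 for mtl-1, 0.27 for sod-3 and 0.20 for the ctl-1 and ctl-3 probe set. For mtl-2 probe sets 1 and 2 it was 0.14 and 0.13, where the median of all probe sets was 0.12.

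**Figure D3:**
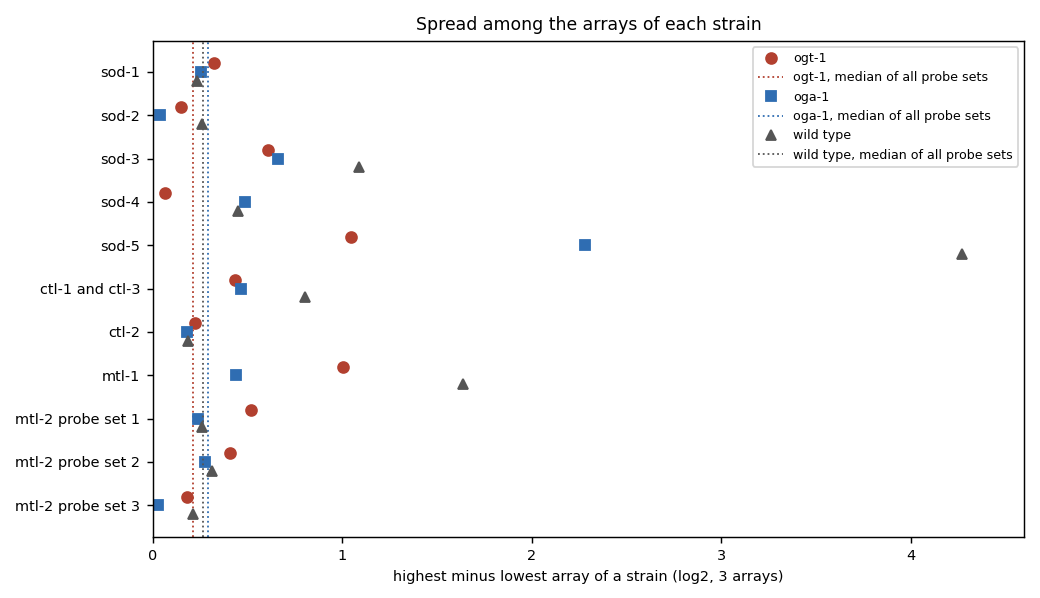
Highest minus lowest of the 3 arrays of each strain (horizontal axis, log2) for each member probe set, with dotted lines at the median range of all probe sets in each strain. The widest ranges are those of sod-5, at 1.04 in ogt-1, 2.28 in oga-1 and 4.27 in wild type, while sod-2 and ctl-2 stay at or below the wild type median of 0.27 in each strain.

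Other genes of peroxide and thiol redox chemistry moved in both directions in ogt-1. The list holds peroxiredoxins, thioredoxins and their reductases, glutathione peroxidases, glutaredoxins and related enzymes, and 33 of its 34 genes were measured. For trx-1, trx-5, gpx-7, gpx-8, duox-2, skpo-1 and skpo-2 all strain means lay at or below the yeast control level, where a change could go unseen. In ogt-1, 2 of the 33 rose, 2 fell and 29 did not pass, beside 3.91% of all probe sets called. Of the 33, 17 had an unadjusted p under 0.05, beside 16.7% of all probe sets. The median log2 difference was 0.08 against 0.01 for all probe sets. Those that rose were trxr-2, the mitochondrial thioredoxin reductase (0.69 ± 0.15, adjusted p = 0.0287), and gspd-1, the glucose-6-phosphate dehydrogenase that makes NADPH (0.64 ± 0.14, adjusted p = 0.0296). Those that fell were mlt-7, a haem peroxidase of the cuticle (-0.95 ± 0.14, adjusted p = 0.00349), and trx-3, a thioredoxin (-0.50 ± 0.10, adjusted p = 0.0208). Of these 4 calls in ogt-1, that of mlt-7 was held without each array in turn. The trxr-2 and gspd-1 calls did not survive the loss of any ogt-1 array or of wild type array 2 or 3, with adjusted p up to 0.120 and 0.150. The trx-3 call needed ogt-1 arrays 2 and 3 and wild type arrays 1 and 2, with adjusted p up to 0.116 when one of these was left out.

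In oga-1, trx-3 fell too (-0.47 ± 0.10, adjusted p = 0.0434), and the other 32 genes of this list did not pass (median -0.00), with 5 of 33 at an unadjusted p under 0.05, beside 14.0% of all probe sets. That call was lost without any one array other than ogt-1 replicate 1, with median centring, with a variance trend, and on oga-1 and wild type alone (adjusted p up to 0.120). It was held with replicate number as a block on these strains (limma adjusted p = 0.0251). Leaving out an oga-1 or wild type array breaks a same-numbered pair. Between the mutants, gsr-1, the glutathione reductase, was lower in oga-1 by 0.61 ± 0.11 (adjusted p = 0.0300), reading 11.34, 11.07 and 11.32 in oga-1 and 11.86, 11.97 and 11.73 in ogt-1. The gsr-1 call failed on oga-1 and ogt-1 alone, and when any ogt-1 array, oga-1 array 1 or 2 or wild type array 2 was left out (adjusted p up to 0.212).

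**Figure D4:**
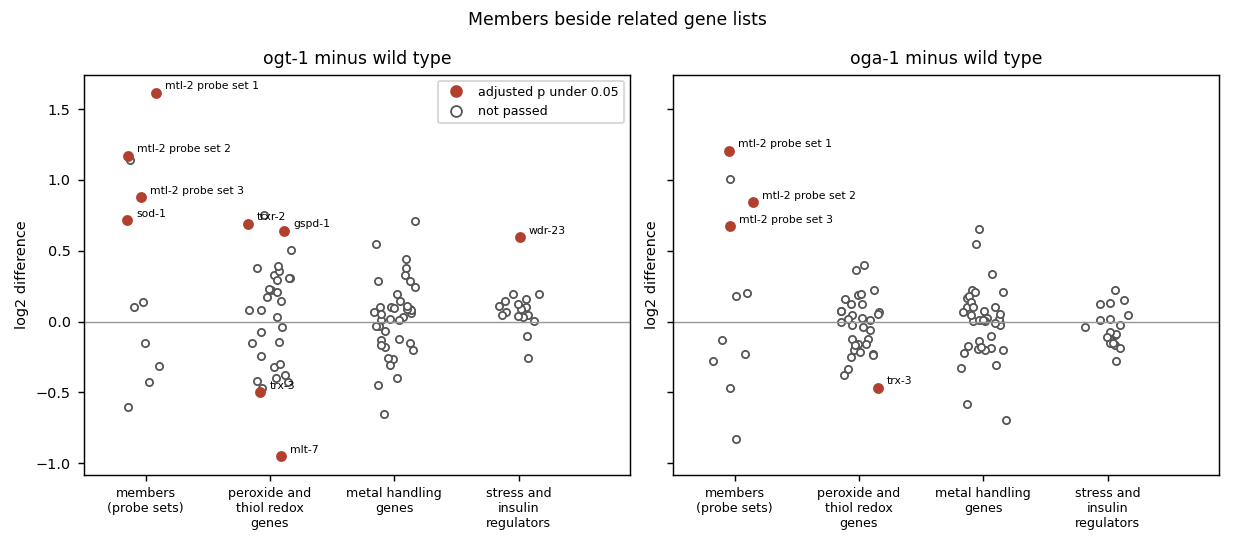
Log2 difference (vertical axis) in ogt-1 (left) and oga-1 (right) against wild type of the 11 member probe sets and of the genes of 3 related lists, 1 point per probe set or gene; filled points passed at an adjusted p under 0.05. The 3 mtl-2 probe sets lie from 0.88 to 1.62 in ogt-1 and from 0.67 to 1.21 in oga-1, and no gene of the metal handling list passed.

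Metallothioneins are 1 part of the handling of metals, beside transporters and storage proteins. Of 46 listed zinc, iron, copper and cadmium transporters, storage proteins and metal-induced genes, 39 were measured by a probe set with 1 symbol. Some of these, such as those of ftn-1, cdr-4 and zipt-2.2, end in s_at and may also bind related transcripts. For cdr-3, zipt-2.3, zipt-2.4, zipt-7.1, zipt-17, smf-2, numr-2 and fpn-1.3 all strain means lay at or below the yeast control level. A change in these genes could go unseen. None of the 39 passed in ogt-1, in oga-1 or between the mutants (limma), beside 3.91%, 1.93% and 0.514% of all probe sets called. An unadjusted p under 0.05 was reached by 7, 4 and 1 of the 39, beside 16.7%, 14.0% and 5.22% of all probe sets. Their log2 differences ran from -0.65 to 0.71 in ogt-1 (median 0.06) and from -0.69 to 0.65 in oga-1 (median 0.01). With replicate number as a block on oga-1 and wild type alone, 4 of the 39 passed in oga-1. That setting called 1316 of all 22548 probe sets, against 436 in the main fit, so its share of calls is larger throughout. Of the 4, cdr-4 (0.55, adjusted p = 0.0304) and the ferritin gene ftn-1 (0.65, adjusted p = 0.0305) were higher. The predicted zinc transporter genes zipt-2.1 (-0.69, adjusted p = 0.00874) and zipt-2.2 (-0.58, adjusted p = 0.0476) were lower. These 4 genes were named after their values were seen.

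Of 19 listed regulators of insulin-like signalling and stress control, 18 were measured. In ogt-1, 1 of the 18 was called, none was called in oga-1 and 1 between the mutants (limma), beside 3.91%, 1.93% and 0.514% of all probe sets. An unadjusted p under 0.05 was reached by 2, 1 and 1 of the 18, beside 16.7%, 14.0% and 5.22% of all probe sets. daf-16, the FOXO factor, differed by 0.11 in ogt-1 (adjusted p = 0.778) and 0.13 in oga-1 (adjusted p = 0.748). skn-1, the Nrf-type factor of oxidative stress responses, differed by 0.11 (adjusted p = 0.686) and -0.07 (adjusted p = 0.845), and daf-2, the insulin receptor, by 0.00 (adjusted p = 0.997) and -0.15 (adjusted p = 0.879). wdr-23, whose protein targets SKN-1 for degradation, was the gene of this list that passed. It read 12.10, 12.12 and 12.00 in ogt-1, 11.49, 11.27 and 11.19 in oga-1, and 11.59, 11.35 and 11.49 in wild type. wdr-23 rose by 0.59 ± 0.11 in ogt-1 (adjusted p = 0.0123), differed by -0.16 in oga-1 (adjusted p = 0.611), and was lower in oga-1 than in ogt-1 by 0.76 ± 0.11 (adjusted p = 0.00689). Leaving out the second ogt-1 array ended both calls (adjusted p = 0.0745 and 0.0587). As for sod-1, the ogt-1 arrays of wdr-23 lay above those of both other strains.

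Across the 9 arrays, the genes with profiles most like that of mtl-2 (probe set 1) were col-142, a cuticle collagen, R04B5.6 and F55G11.7, at root mean square differences of 0.224, 0.255 and 0.270 log2 units after each profile was centred, where mtl-2 itself deviated from its mean by 0.704. col-142 was 2.37-fold higher in ogt-1 and 1.75-fold in oga-1, R04B5.6 2.64- and 2.32-fold, and F55G11.7 4.18- and 2.72-fold. Because the mutant against wild type difference makes up much of the mtl-2 profile, these folds follow from the choice of genes and carry no test. Nearest to mtl-1 were C06G3.3 (0.225), hsp-16.20 (0.232) and the small heat shock gene hsp-12.6 (0.240), where mtl-1 deviated by 0.710. In ogt-1 and oga-1 they were 2.28- and 1.66-fold (C06G3.3), 1.74- and 1.6-fold (hsp-16.20) and 2.89- and 2.42-fold (hsp-12.6) higher than in wild type, again as the choice implies. Nearest to sod-3 were col-160 (0.153), C56E6.2 (0.167) and pmp-5 (0.182). All these likenesses are descriptions over 9 arrays that share strains and replicates.

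Markers of the intestine, where mtl-2 is expressed, were read for 10 of 11 listed genes, all above the yeast control level. None of the 10 passed in ogt-1 or oga-1 against wild type (limma), beside 3.91% and 1.93% of all probe sets called. In each comparison 1 of the 10 had an unadjusted p under 0.05, beside 16.7% and 14.0% of all probe sets. The summed level of these markers was 15.43 to 15.49 in ogt-1, 15.45 to 15.55 in oga-1 and 15.52 to 15.53 in wild type (log2 of the sum of linear values, which weights brighter probe sets more and here rests mostly on asp-1 and ifb-2). The ogt-1 sums all lay below the wild type sums, while the oga-1 range took in that of wild type. Between the mutants 1 of the 10 passed, beside 0.514% of all probe sets called. It was the protease gene cpr-1, named after its values were seen, which was higher in oga-1 than in ogt-1 (log2 difference 1.14, limma adjusted p = 0.0429). Markers of adults, oocytes and embryos gave 10.59 to 10.65 in ogt-1, 10.56 to 10.66 in oga-1 and 10.61 to 10.75 in wild type, and 5 of 13 measured (vit-1, vit-2, vit-5, cpg-2 and egg-1) stayed at or below the yeast control level in every strain. Sperm markers gave 8.83 to 8.98 in ogt-1, 8.84 to 9.04 in oga-1 and 8.86 to 9.04 in wild type, with 5 of 8 (gsp-3, gsp-4, spe-11, msp-38 and msp-142) at or below that level. The part of these small shifts in the metallothionein and dismutase results was not tested.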

How the data were processed

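Biotin-labelled cRNA from 4 ug of total RNA was hybridised to 9 Affymetrix arrays, per the labels' protocols. The authors deposited log2 values, 1 per probe set and array, already on a common scale (array means 7.36). MAS5, RMA and Partek appear in the submitters' processing notes, with neither version nor role. Scanner images were not used, and the number of arrays limits the precision. The 77 control probe sets were left out. The other 22548 were tested without filter, offset or rescaling, by limma 3.58.1 under R 4.3.3. lmFit estimated strain means from the 9 arrays together, leaving 6 residual degrees of freedom, and eBayes gave moderated tests with Benjamini-Hochberg adjustment over all probe sets of a contrast and a threshold of 0.05. The tests were checked on simulated data. Symbols came from the platform annotation, and all 10 member symbols were found unchanged in the gene table of assembly WBcel235. Genes of lists were read by their brightest probe set with 1 symbol. Named are all members, up to 4 called genes per list and contrast by smallest adjusted p, daf-16, skn-1 and daf-2, and the 3 genes with profiles nearest to mtl-1, mtl-2 and sod-3. The level of the yeast control probe sets served as a bound for background. Members and lists were chosen with earlier results of these data known. The alternatives were replicate number as a block, quantile normalisation, a filter on the dimmest 25% or 50% of probe sets, centring of array medians, robust fitting with a variance trend, the 2 strains compared alone, a threshold of 0.01, averaging each gene's probe sets, and leaving out each array. A block on 2 strains alone was added after seeing the data. To check whether replicate numbers pair arrays, deviations of same-numbered arrays from their strain means were correlated: for oga-1 with wild type these were 0.481, 0.432 and 0.357, and the numbers were taken to pair these arrays, a pairing that comes from the data. For ogt-1 with wild type they were -0.096, -0.016 and -0.002, and for oga-1 with ogt-1 0.072, 0.094 and 0.113.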

Additional observations from a re-analysis of the deposited data

How the results depend on the processing

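The 33 differences of the 11 member probe sets in 3 contrasts were recomputed 594 times in all, with 591 results on the main side of the threshold or uncalled, 2 losses and 1 gain of a call, and no called value changed sign. The losses were those of mtl-2 probe set 2 in oga-1 without oga-1 replicate 1 and at the threshold of 0.01 (adjusted p = 0.0119). The gain was that of mtl-1 in oga-1 with the replicate block on 2 strains alone. The count of called members was 4 in ogt-1 in each setting, 2 to 3 in oga-1 when an array was left out, and 0 between the mutants in each setting.

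The count over all probe sets was 882 in ogt-1, 332 to 1186 without one array, and 306 at the threshold of 0.01. In oga-1 it was 436, 124 to 624 without one array, 749 with the replicate block, 187 on 2 strains alone, 1316 with the block on 2 strains alone, and 81 at 0.01. Between the mutants it was 116, 76 to 197 without one array, and 176 with the replicate block. The called peroxide and thiol redox genes were 4 in ogt-1 (1 to 5 without one array, 1 at 0.01), 1 in oga-1 (0 to 1 without one array, and 0 with median centring, a variance trend, 2 strains alone, or 0.01) and 1 between the mutants (0 to 1 without one array, 2 with the replicate block, and 0 on 2 strains alone with or without the block or at 0.01). Metal handling genes were 0 in ogt-1 (0 to 1 without one array, 1 with the replicate block or with each gene's probe sets averaged) and 0 in oga-1 (0 to 2 without one array, 4 with the block on 2 strains alone). Regulators were 1 in ogt-1 (0 to 1 without one array, 0 at 0.01) and 1 between the mutants (0 to 1 without one array). The cause was not tested, except that a stricter threshold calls fewer. With 3 arrays per strain, sod-5, mtl-1 and sod-3 had the widest intervals among the members.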

Other observations

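The wide spread of sod-5 was shared by few probe sets. The widest range among the wild type arrays was that of hsp-16.21, a small heat shock gene, which read 7.16, 8.20 and 8.18 in ogt-1, 8.63, 7.72 and 6.68 in oga-1, and 10.23, 8.08 and 5.60 in wild type. The third widest was a probe set for the metal-induced genes numr-2 and numr-1, at 7.32, 9.19 and 6.95 in ogt-1, 10.37, 9.67 and 7.48 in oga-1, and 10.32, 8.09 and 6.34 in wild type. The probe set that names numr-2 alone read 5.82 to 6.0 in ogt-1, 5.77 to 6.02 in oga-1 and 5.74 to 6.0 in wild type, below the highest strain mean of the yeast controls and without that spread. On the hsp-16.21 probe set and the shared probe set of numr-2 and numr-1, as for sod-5, wild type replicate 1 was the highest and replicate 3 the lowest of the wild type arrays, and replicate 1 the highest and replicate 3 the lowest of the oga-1 arrays. Over the 9 arrays hsp-16.21 was also the gene with the profile nearest to sod-5, at a root mean square difference of 0.312 log2 units, where sod-5 deviated from its mean by 1.23 and the next gene, tag-18, lay at 0.633. These genes were named after their values were seen, and no test was run on them.

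The array also carries 3 control probe sets for catalase, which have no symbol in the platform annotation and are no members. The middle one read 8.58, 8.84 and 9.0 in ogt-1, 8.71, 8.62 and 8.15 in oga-1, and 9.03, 8.38 and 8.16 in wild type. Its arrays stood in the same order within each strain as those of the ctl-1 and ctl-3 probe set, while ctl-2 stood in another order in each strain. The log2 ratio of the 3' to the 5' catalase control was 0.19 to 0.65 in ogt-1, -0.06 to 0.68 in oga-1 and 0.43 to 0.72 in wild type, and that of the actin control was 0.48 to 0.55 in ogt-1, 0.34 to 0.60 in oga-1 and 0.24 to 0.77 in wild type. For both controls the strains overlapped.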
